A study of Mus musculus with 12 samples.

Results

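Transcripts of 8 genes of cholesterol synthesis and its control were followed across 12 microarrays of mouse liver cells and liver organoids. The genes were a given list, Hmgcs1, Idi1, Fdft1, Sqle, Lss, Dhcr7, Srebf2 and Insig1, and all 8 were found among the 19937 genes with a named array row. Of these, 6 encode enzymes of the pathway from acetyl-CoA to cholesterol, and Srebf2 and Insig1 encode its regulators. None of the 8 is itself an uptake receptor, so genes of uptake were taken from a wider list. Affymetrix MoGene 1.0 ST arrays measured total RNA from C57Bl6 mice in 4 groups of 3 libraries. The first group held uninduced liver cells sorted by FACS for YFP and titled hepatocytes. The second held wild-type organoids, grown for 2 weeks. In the other groups Yap, a transcriptional coactivator that the Hippo kinase cascade keeps out of the nucleus, was active in the animal for 3 weeks, and its organoids were cultured for 2 weeks. Cultures without Dox had Yap off during those 2 weeks and are called Yap-off organoids here, and cultures with Dox kept Yap on and are called Yap-on organoids. The labels used here give no age, no driver or copy of the Yap transgene, no allele behind the YFP and no number of animals. P-values thus speak for the spread among these libraries alone, and that spread may be technical.

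Cholesterol is built from acetyl-CoA through mevalonate, isoprenyl diphosphates, squalene and lanosterol, and the liver is a main site of this synthesis. The transcription factor SREBP2, the product of Srebf2, turns on the genes of the pathway, its own gene among them. When membranes are rich in sterol, INSIG proteins hold the SREBP escort SCAP in the endoplasmic reticulum, and when sterol is scarce the SREBPs travel to the Golgi, are cleaved and enter the nucleus. INSIG1 is itself a target of SREBP, which closes the loop.

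RefSeq promoter windows of 300 bases, from 250 before to 50 after a start site, were listed for 6 of the 8 genes on build GRCm38.p6. Sqle and Fdft1 had no entry. Windows are shown of the 4 genes whose transcripts differed between Yap-on and Yap-off organoids when those 6 arrays were fitted alone. For Idi1 this rests on the brighter of its array rows. Windows are given because these are the stretches in which SREBP, NF-Y and Sp1 type motifs are usually sought. Capitals mark matches to 4 motifs, on either strand: TCACNCCAC, as in sterol response elements; CACGTG, the E-box; CCAAT, bound by NF-Y; and GGGCGG, bound by Sp1. No base of these windows lies in more than 1 motif. All 4 windows are on the plus strand and are written 5′ to 3′, and of the 3 windows of Dhcr7 the one with the most matches is given.
Hmgcs1, chr13:119690101-119690400: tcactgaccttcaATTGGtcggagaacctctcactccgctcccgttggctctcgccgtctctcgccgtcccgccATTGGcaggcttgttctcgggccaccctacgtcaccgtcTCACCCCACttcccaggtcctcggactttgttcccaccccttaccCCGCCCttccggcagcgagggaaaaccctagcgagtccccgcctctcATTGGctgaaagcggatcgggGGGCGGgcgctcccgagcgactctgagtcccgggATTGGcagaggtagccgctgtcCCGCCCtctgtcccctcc
Idi1, chr13:8885356-8885655: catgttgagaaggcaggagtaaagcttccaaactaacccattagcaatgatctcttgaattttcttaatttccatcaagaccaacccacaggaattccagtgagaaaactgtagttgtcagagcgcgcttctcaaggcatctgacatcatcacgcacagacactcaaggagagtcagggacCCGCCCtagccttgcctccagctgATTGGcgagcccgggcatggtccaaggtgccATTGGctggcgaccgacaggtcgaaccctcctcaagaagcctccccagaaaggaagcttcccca
Dhcr7, chr7:143829964-143830263: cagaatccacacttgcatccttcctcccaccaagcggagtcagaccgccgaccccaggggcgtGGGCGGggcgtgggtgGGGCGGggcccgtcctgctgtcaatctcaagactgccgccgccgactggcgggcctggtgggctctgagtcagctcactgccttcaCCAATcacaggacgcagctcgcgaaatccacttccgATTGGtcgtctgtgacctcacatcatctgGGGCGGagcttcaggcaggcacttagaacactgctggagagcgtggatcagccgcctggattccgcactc
Srebf2, chr15:82147019-82147318: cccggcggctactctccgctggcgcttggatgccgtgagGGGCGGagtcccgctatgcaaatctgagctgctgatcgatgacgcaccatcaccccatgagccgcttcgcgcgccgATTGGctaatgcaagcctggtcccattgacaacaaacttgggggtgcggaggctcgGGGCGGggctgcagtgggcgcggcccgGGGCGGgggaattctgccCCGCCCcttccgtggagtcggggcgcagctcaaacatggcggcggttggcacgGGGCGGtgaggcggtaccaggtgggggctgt
TCACNCCAC occurred in 1 of the 8 windows, that of Hmgcs1, with its first base at -137 from the start, and in 1.24% of all 32851 RefSeq windows of this length. CCAAT or its complement occurred in 6 of the 8 windows of these genes and in 37.4% of all windows, and GGGCGG in 7 of the 8 and in 35.7%. CACGTG was matched in Insig1 and in a window of Dhcr7 that is not shown, against 7.15% of all windows. A match describes letters only, and a window without one says nothing about the factor.

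The libraries titled hepatocyte and wild-type organoid did not fall together by title, which bears on every comparison that uses them. Correlation over all genes lay between 0.992 and 0.995 among Yap-on organoids and between 0.975 and 0.983 among Yap-off organoids, but reached down to 0.822 among the libraries titled hepatocyte and to 0.800 among those titled wild-type organoid. The mean log2 value of 10 macrophage markers was 11.19 in the library titled hepatocyte 2, 9.997 in wild-type organoid 1 and 10.91 in wild-type organoid 3, and 3.55 to 4.70 in the other 9. Of these markers, Lyz2, a lysozyme, was at 11.56 to 12.16 in the same 3 libraries and at 2.59 to 6.30 in the others. The 10 endothelial markers averaged 7.21, 9.85 and 8.81 in those 3 libraries and 3.21 to 3.66 elsewhere, with the scavenger receptor Stab2 at 7.61, 10.94 and 10.11. Markers of the sorted cells were mixed. The hepatocyte list averaged 8.81, 9.69 and 9.02 in hepatocytes 1 to 3, and the biliary list 6.09, 3.73 and 5.94. Cyp2e1, a cytochrome P450 of mature hepatocytes, was at 3.16 and 3.22 in hepatocytes 1 and 3 and at 10.14 in hepatocyte 2, and the biliary keratin gene Krt19 was at 10.21, 9.82 and 4.95 in hepatocytes 1, 3 and 2. Other members ran differently, with the hepatocyte gene Ttr at 11.78, 11.70 and 10.41 and the biliary gene Epcam at 3.76, 4.13 and 3.59 in the same order. Albumin (Alb) was between 11.53 and 12.54 in all libraries except Yap-on organoids, where it was at 3.29 to 3.68. The titles are kept below, and each library's value is given for the 8 genes. Some other genes are given by group means or differences alone. Hepatocyte markers averaged 10.40 to 10.75 in Yap-off and 4.27 to 4.37 in Yap-on organoids, and 7 measured of 10 biliary markers averaged 5.19 to 5.45 and 8.89 to 8.97. Xist, expressed from the inactive X chromosome, was at 8.49 to 9.20 in Yap-off and 3.14 to 3.20 in Yap-on organoids. It was at 3.14 to 3.30 in wild-type organoids and at 8.82, 2.995 and 8.999 in hepatocytes 1 to 3, and the Y-linked Eif2s3y ran the opposite way. Sex therefore cannot be told apart from group in Yap-off organoids against Yap-on or wild-type organoids, nor, once hepatocyte 2 is left out, in Yap-on or wild-type organoids against hepatocytes. Yap1 itself was at 7.15 ± 0.24 (SD, n = 3) in Yap-off and 7.38 ± 0.08 in Yap-on organoids, a log2 difference of 0.23. In limma on all 12 arrays the SE was 0.56 and the adjusted p 0.825. That fit shares its spread with hepatocytes and wild-type organoids, where the SD of Yap1 was 1.28 and 0.77. The labels give no copy of the Yap transgene, and whether this array row reads it was not tested.

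**Figure D1:**
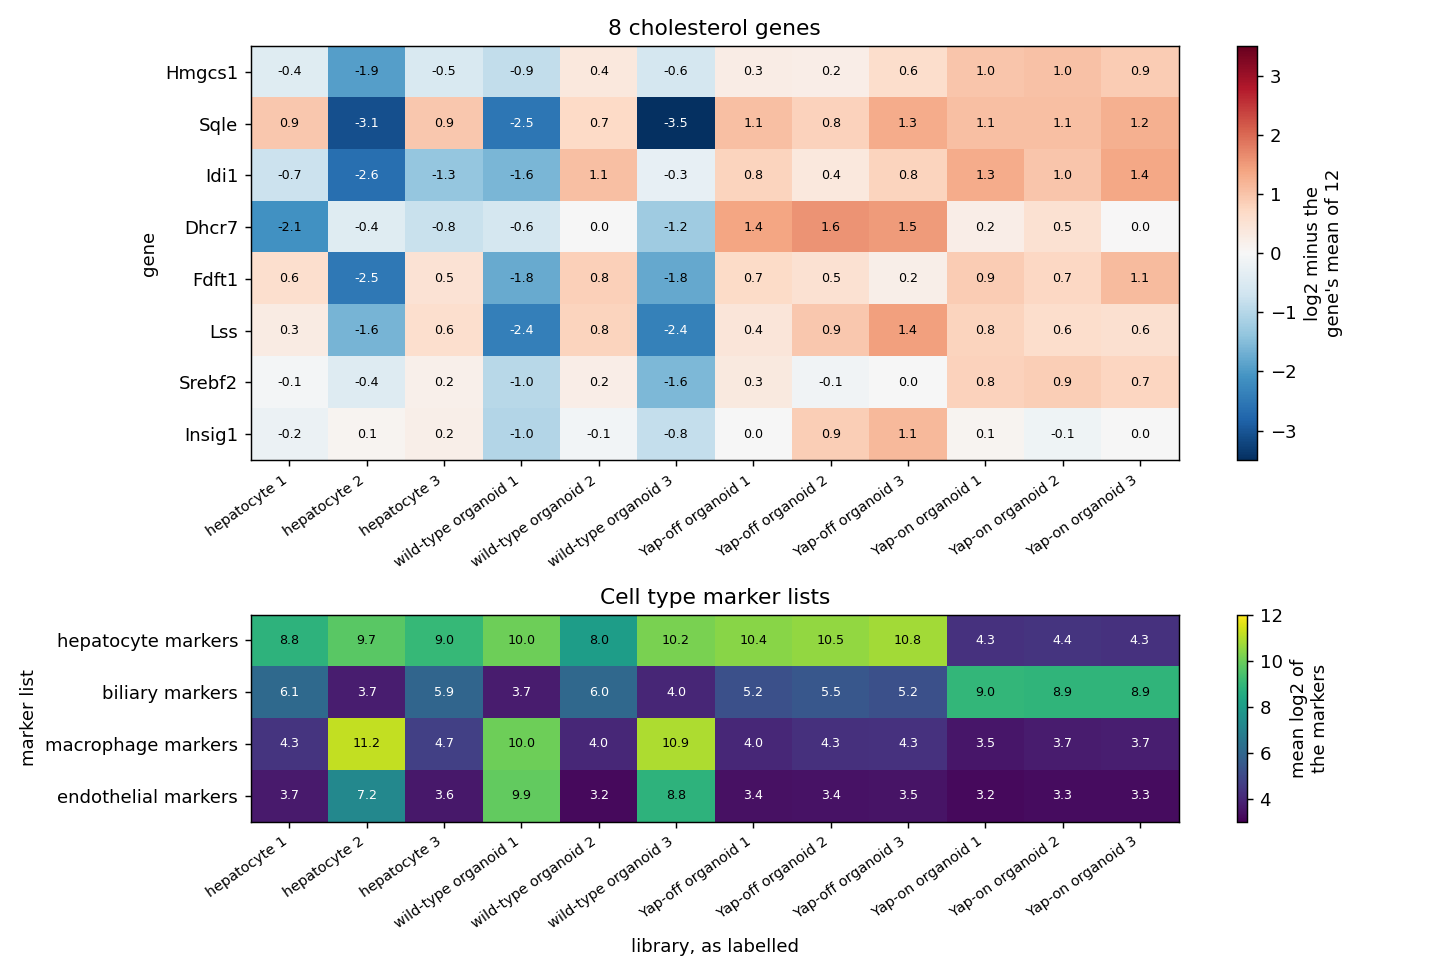
Columns are the 12 libraries. The upper panel gives each of the 8 genes as its log2 value minus its mean over the 12, and the lower panel the mean log2 value of 4 cell type marker lists, by colour and in print. Hepatocyte 2 and wild-type organoids 1 and 3 have macrophage means of 11.19, 9.997 and 10.91, and the lowest averages of the 8 genes, -1.57, -1.47 and -1.52.

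The library averages over the 8 transcripts overlapped between Yap-on and Yap-off organoids, while their hepatocyte markers differed by a median of -7.25 on the log2 scale, Yap-on minus Yap-off, a size limited by the array background that most of them reached in Yap-on organoids. Library averages were 8.19, 8.22 and 8.44 in Yap-off and 8.34, 8.28 and 8.31 in Yap-on organoids. Among single genes, Hmgcs1, Idi1 and Srebf2 were 1.5 to 1.7 times as high in Yap-on organoids, and Dhcr7 was 2.3 times as high in Yap-off organoids, on the 6 arrays of these groups. Idi1 is counted here on its brighter array row, and on its other row these groups overlapped. Comparisons used limma across all 19937 genes, with Benjamini-Hochberg adjustment and a threshold of 0.05. When all 12 arrays were fitted with 1 common spread, 0 of the 8 genes passed and 1, Dhcr7, had an unadjusted p under 0.05, where 11.5% of all genes passed. On the 6 arrays alone 3 genes passed as higher and 1 as lower in Yap-on organoids, with a background of 31.2%. A fit of 10 arrays, without hepatocyte 2 and wild-type organoid 2, also called 3 higher and 1 lower, with Fdft1 in place of Idi1 and a background of 29.7%. The differences are the same in all 3 fits and only their errors change. All Yap-on libraries lay above or below all Yap-off libraries in 5 of the 8 genes, against 53.5% of all genes, so that an absence of overlap between these groups is common. The median difference of the 8 was 0.25, with 5 above and 3 below 0, and that of all genes was -0.08. In RNA from whole cultures, fewer cells of a type and less RNA per cell cannot be told apart.

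**Figure D2:**
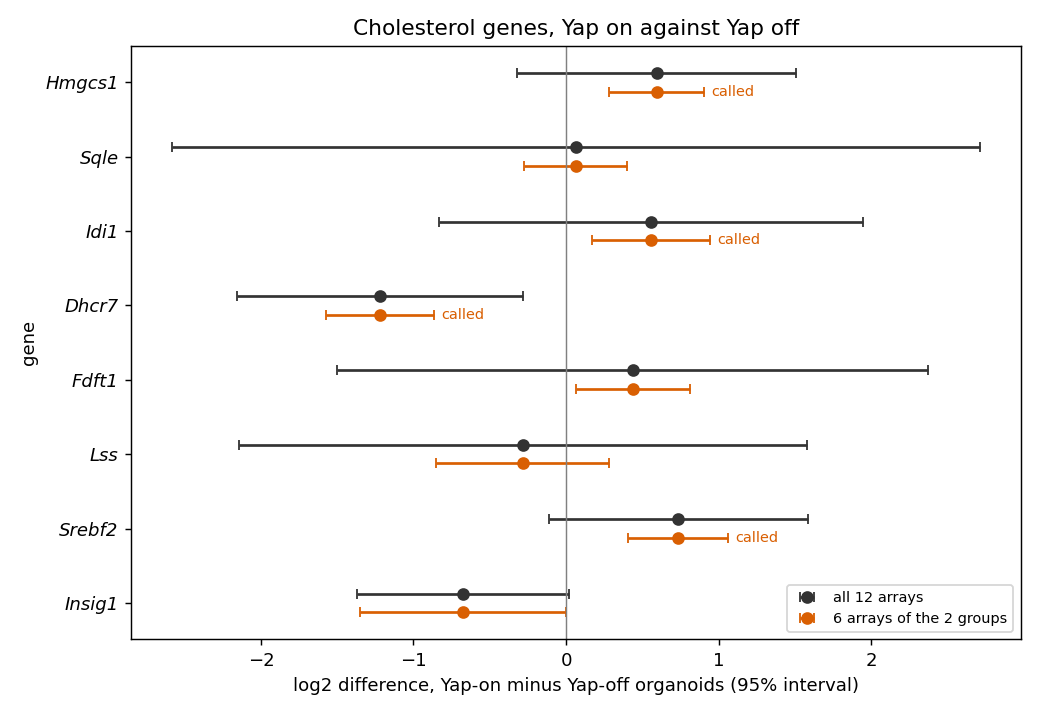
Points are log2 differences, Yap-on minus Yap-off organoids, with 95% intervals from limma, for each of the 8 genes with all 12 arrays and with the 6 arrays of these groups. Intervals on 12 arrays are widest for Sqle, from -2.59 to 2.71, and with 6 arrays those of Hmgcs1, Idi1, Fdft1 and Srebf2 lie above 0 and that of Dhcr7 below 0.

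Hmgcs1 encodes the cytosolic HMG-CoA synthase, an early enzyme of the mevalonate pathway. On array row 10412466, its log2 signal was 8.08, 8.05 and 8.44 in Yap-off and 8.80, 8.84 and 8.71 in Yap-on organoids. Wild-type organoids 1 to 3 gave 6.94, 8.19 and 7.21, and the libraries titled hepatocyte 7.38, 5.90 and 7.28. Every Yap-on library was therefore above every other library of the 12, and the Yap-off group overlapped the wild-type group through wild-type organoid 2. Group means were 8.78 ± 0.07, 8.19 ± 0.22, 7.45 ± 0.66 and 6.85 ± 0.83 (SD, n = 3 each) for Yap-on, Yap-off and wild-type organoids and hepatocytes. Yap-on exceeded Yap-off organoids by 0.59, or 1.51-fold, with an SE of 0.41 and an adjusted p of 0.374 on 12 arrays, and an SE of 0.13 and an adjusted p of 0.0146 on 6.

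Idi1 encodes isopentenyl-diphosphate isomerase, which supplies dimethylallyl diphosphate for chain building. Row 10482762, its brighter row, read 7.84, 7.43 and 7.83 in Yap-off and 8.35, 8.01 and 8.41 in Yap-on organoids. In wild-type organoids it read 5.46, 8.11 and 6.75, and in hepatocytes 6.31, 4.43 and 5.71. The Yap-on and Yap-off libraries did not overlap, and wild-type organoid 2 fell among the Yap-on libraries. The Yap-on minus Yap-off difference was 0.56, with an adjusted p of 0.596 on 12 arrays, 0.0403 on 6 and 0.2 without hepatocyte 2 and wild-type organoid 2, so the call rests on the choice of arrays. Its other row, 10403413, gave 5.78, 5.26 and 7.57 in Yap-off and 7.001, 6.42 and 7.16 in Yap-on organoids, and these overlapped. Which row better measures Idi1 was not settled by the annotation.

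Fdft1, Sqle and Lss carry the chain from farnesyl diphosphate to lanosterol. They encode squalene synthase, squalene epoxidase, whose step needs oxygen and is a control point, and lanosterol synthase, which closes the rings. Fdft1 signal on row 10420730 was 8.79, 8.65 and 8.32 in Yap-off and 9.02, 8.84 and 9.22 in Yap-on organoids, a difference of 0.44 with an adjusted p of 0.778 on 12 arrays and 0.0755 on 6. On this row the Fdft1 difference passed only on 10 arrays, with an adjusted p of 0.0492. Its other row, 10412909, read 8.25, 8.16 and 8.35 in Yap-off and 8.92, 8.86 and 9.24 in Yap-on organoids. On either row these groups did not overlap. Sqle on row 10424349 read 8.57, 8.31 and 8.79 in Yap-off and 8.56, 8.57 and 8.74 in Yap-on organoids. Its difference was 0.06 with a 95% interval of -0.27 to 0.40 on the 6 arrays. Lss on row 10364194 read 6.74, 7.24 and 7.73 in Yap-off and 7.07, 6.92 and 6.86 in Yap-on organoids, a difference of -0.28 with an interval of -0.85 to 0.28 on 6 arrays. For both Sqle and Lss the groups overlapped, and the 6-array intervals bound a change either way.

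The same 3 genes spread widely among libraries outside the Yap groups. Sqle was at 8.45, 4.42 and 8.44 in hepatocytes and at 4.98, 8.20 and 4.03 in wild-type organoids. Fdft1 followed with 8.72, 5.63 and 8.64 in hepatocytes and 6.36, 8.95 and 6.34 in wild-type organoids. Lss was at 6.60, 4.66 and 6.89 in hepatocytes and at 3.90, 7.07 and 3.93 in wild-type organoids. In each gene the low values were those of hepatocyte 2, wild-type organoid 1 and wild-type organoid 3, the 3 libraries with high macrophage and endothelial markers. The part of those cells in the low values was not tested. Each of these group means had an SD between 1.21 and 2.32.

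Dhcr7 encodes 7-dehydrocholesterol reductase, the last step of one branch of the pathway, and had the largest difference of the 8 between the Yap groups. Its row 10559312 read 8.54, 8.73 and 8.66 in Yap-off organoids against 7.40, 7.70 and 7.18 in Yap-on organoids. Wild-type organoids read 6.54, 7.15 and 5.92, and hepatocytes 5.06, 6.73 and 6.38. Yap-off libraries were above the other 9, and the Yap-on group stood next, just clear of wild-type organoid 2. Group means ran from 8.65 ± 0.09 through 7.43 ± 0.26 and 6.54 ± 0.61 to 6.06 ± 0.88 (SD, n = 3 each), and the spreads of the last 2 overlapped. Yap-on minus Yap-off was -1.22, with an SE of 0.42 and an adjusted p of 0.0939 on 12 arrays and an SE of 0.15 and an adjusted p of 0.00121 on 6.

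**Figure D3:**
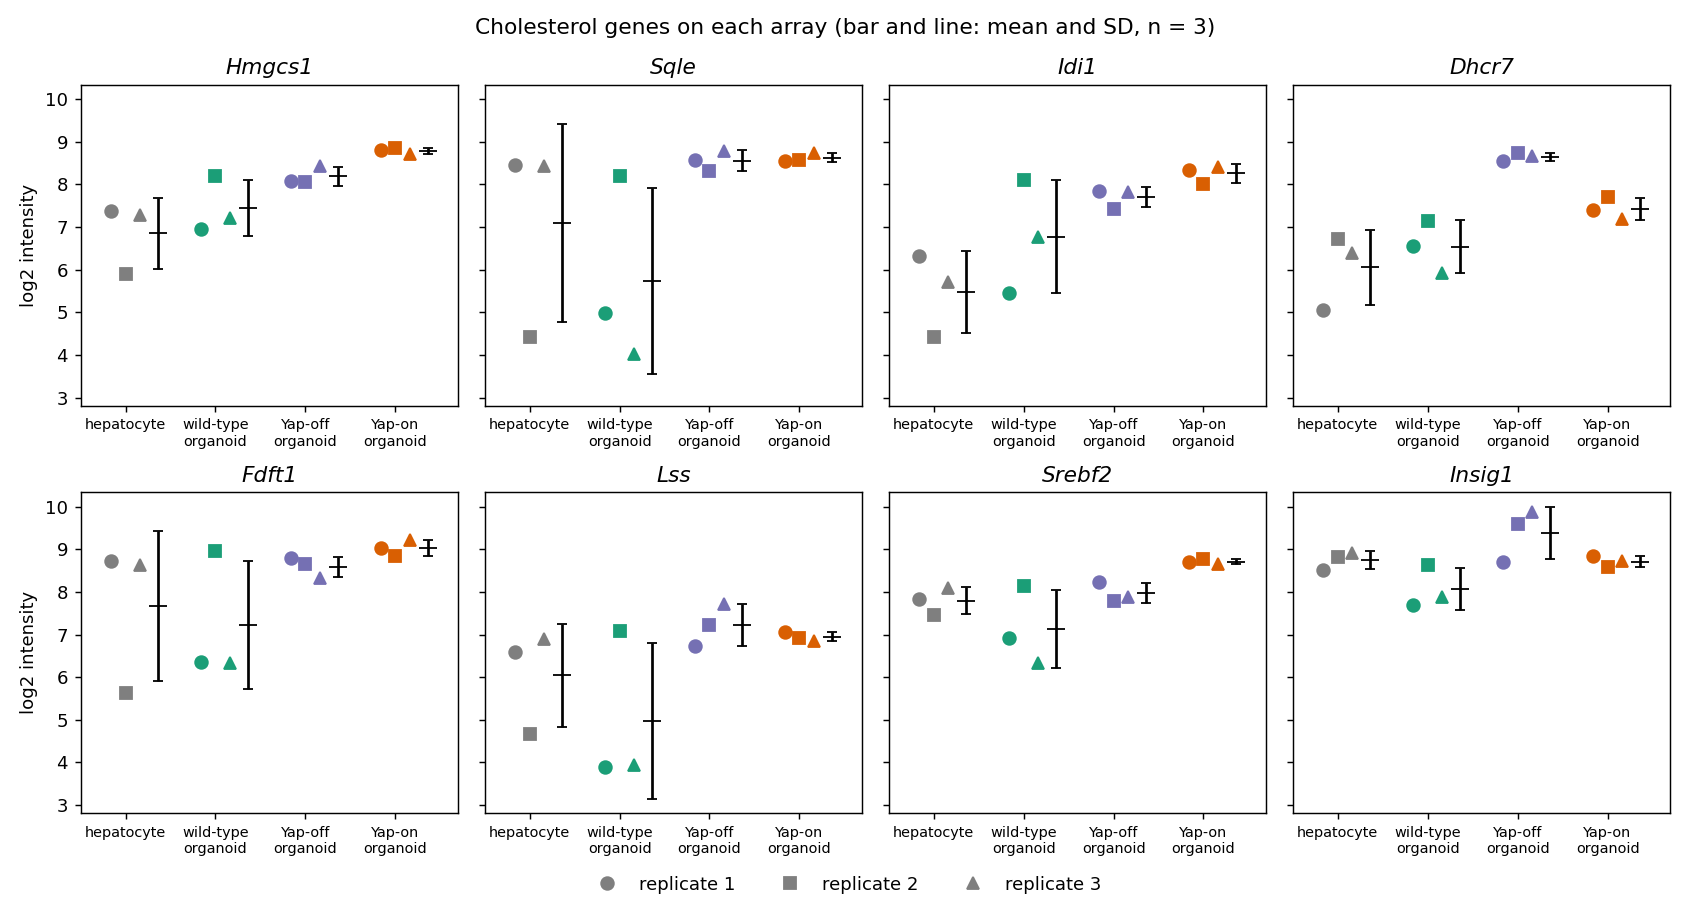
Points are log2 signals of single libraries on the array row used for each gene, by title group, with group mean and SD (n = 3) drawn beside them. Dhcr7 is highest in Yap-off organoids (8.54 to 8.73), Hmgcs1 and Srebf2 in Yap-on organoids (8.71 to 8.84 and 8.65 to 8.77), and Sqle, Fdft1 and Lss each have 3 libraries far below the rest.

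Srebf2, the regulator of the pathway, was highest in the Yap-on group. Row 10425695 read 8.24, 7.79 and 7.88 in Yap-off and 8.70, 8.77 and 8.65 in Yap-on organoids, 6.93, 8.14 and 6.33 in wild-type organoids and 7.84, 7.45 and 8.08 in hepatocytes. All Yap-on libraries exceeded all others, while the Yap-off, wild-type and hepatocyte libraries overlapped. Yap-on minus Yap-off was 0.73, or 1.66-fold, with an SE of 0.38 and an adjusted p of 0.244 on 12 arrays, and an SE of 0.14 and an adjusted p of 0.0076 on 6. Insig1, the sterol-sensing brake, pointed the other way, with 8.70, 9.58 and 9.87 in Yap-off and 8.83, 8.59 and 8.72 in Yap-on organoids. It read 7.70, 8.62 and 7.88 in wild-type organoids and 8.52, 8.82 and 8.92 in hepatocytes. Yap-off organoid 1 lay among the Yap-on libraries and the other two Yap-off libraries lay above them. The Insig1 difference of -0.67 had an adjusted p of 0.197 on 12 arrays and 0.113 on 6. Leaving out each of the 6 libraries in turn gave -1.01 to -0.43, with adjusted p-values of 0.0425 to 0.492. It passed in 1 of these 6 fits, that without Yap-off organoid 1, the library that lay among the Yap-on libraries.

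Around the 8 genes, 10 of 13 other enzymes of synthesis had higher mean signal in Yap-on than in Yap-off organoids, against 42.4% of all genes. Lower signal was found in 9 of 11 genes of esterification, efflux and disposal, against 57.6% of all genes. For uptake it was 6 of 9, or 66.7%, which is near the share of all genes. The lists are described by their counts, and the arrays hold named rows for 13 of 16 other synthesis enzymes, 6 of 8 genes of SREBP processing and feedback, 9 of 12 genes of uptake and 11 of 14 of esterification, efflux and disposal. The other listed genes are not analysed here. Median Yap-on minus Yap-off differences were 0.38, -0.31, -0.34 and -1.99 in that order. Calls on 12 arrays were 1 higher and 0 lower for the enzymes, 0 and 1 for processing, 0 and 3 for uptake, and 0 and 6 for disposal, against the 11.5% of all genes. On the 6 arrays they were 6 and 1, 1 and 3, 1 and 4, and 1 and 9, against 31.2%. The only one of these enzymes called on 12 arrays was Ggps1, whose product is used for protein prenylation. Hepatocyte and biliary markers, and Xist, differed between the same groups, and their part in these counts was not tested.

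**Figure D4:**
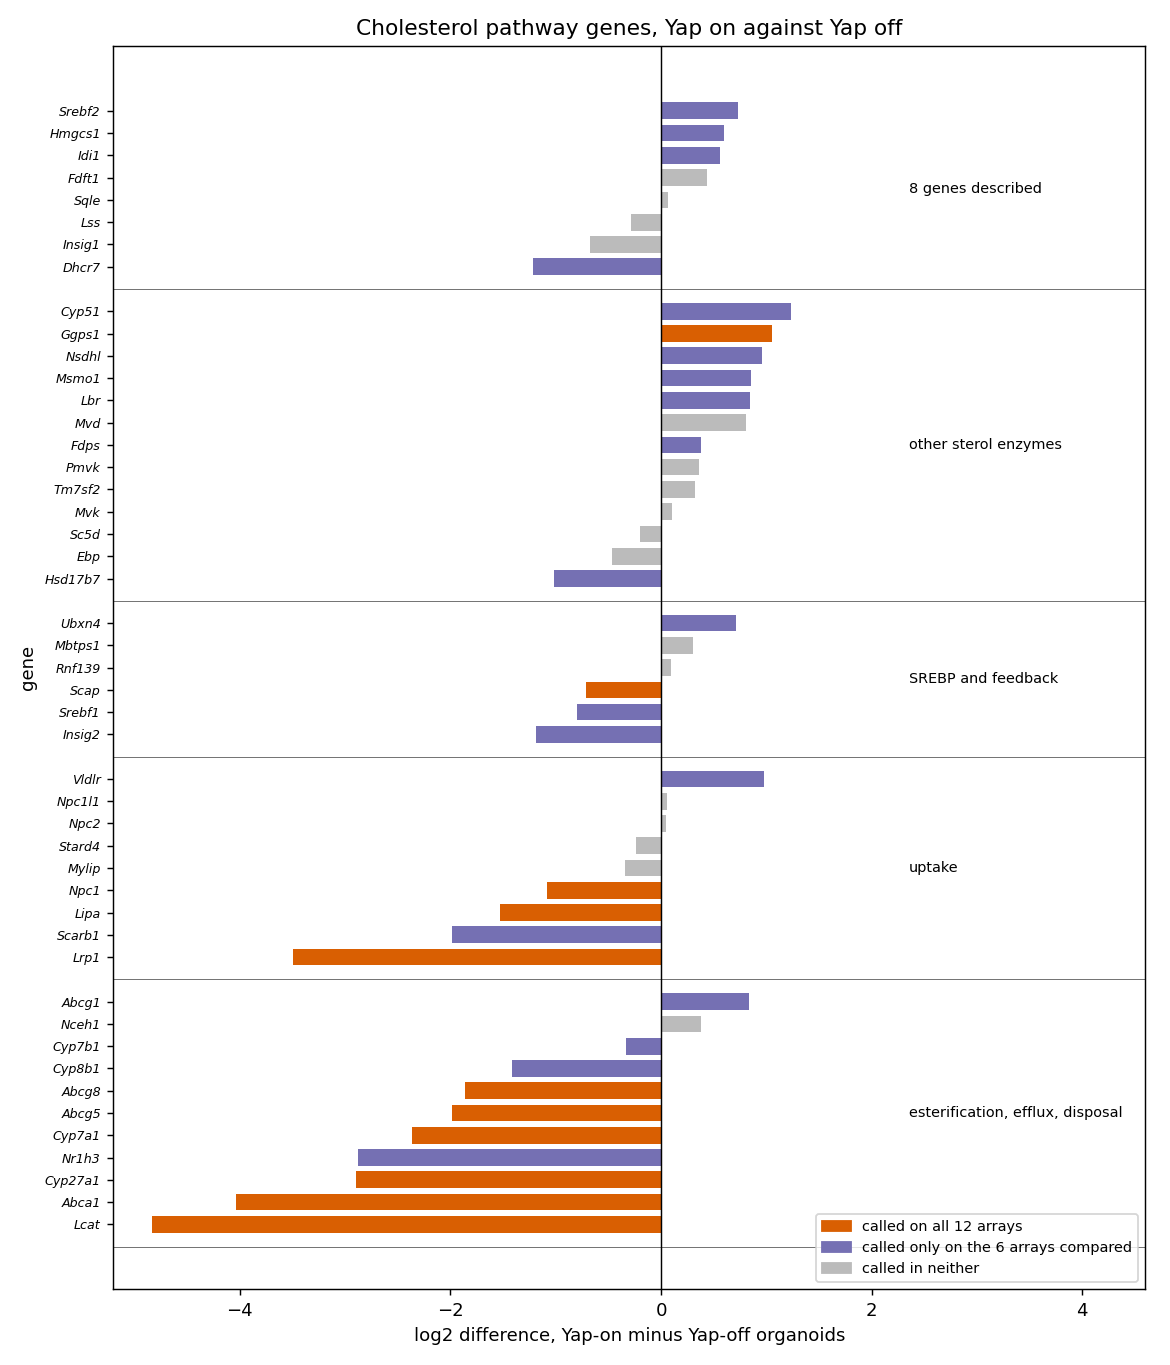
Bars give the log2 difference, Yap-on minus Yap-off organoids, of every measured gene of the 8 and of the 4 wider lists, coloured by whether it was called on 12 arrays, only on 6 or in neither. Of the other enzymes 10 of 13 lie above 0, up to 1.24 for Cyp51, and of the genes of esterification, efflux and disposal 9 of 11 lie below 0, down to -4.84 for Lcat.

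Among the other enzymes, Ggps1 makes the geranylgeranyl diphosphate used for protein prenylation. It was at 5.31 ± 0.17 in Yap-off and 6.36 ± 0.03 in Yap-on organoids (SD, n = 3), a difference of 1.05 with an adjusted p of 0.00402. Wild-type organoids were at 6.21 ± 0.38 and hepatocytes at 5.94 ± 0.05. Yap-off minus wild-type organoids was -0.91 (adjusted p = 0.0308), and Yap-on minus wild-type organoids was 0.14 (adjusted p = 0.643). Cyp51, the lanosterol demethylase, read 8.08, 7.58 and 8.32 in Yap-off and 9.26, 9.03 and 9.40 in Yap-on organoids. Its difference of 1.24 had an adjusted p of 0.323 on 12 arrays and 0.00443 on 6. Hsd17b7, a sterone reductase of the later steps, had a difference of -1.01 with adjusted p-values of 0.455 and 0.0114. Cyp51 and Hsd17b7 each had low values in the same 3 libraries as Sqle.

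The 6 measured genes listed under SREBP processing and feedback were divided, with 3 higher and 3 lower by their means in Yap-on organoids. The 3 higher differed by 0.09 to 0.71 and the 3 lower by -1.19 to -0.71. Scap, the SREBP escort, differed by -0.71 with an adjusted p of 0.0306 on 12 arrays, but the call was lost when any 1 of the 6 libraries was left out, with adjusted p-values of 0.0532 to 0.115, and was kept on 6 arrays at 0.00514. Insig2, the second INSIG protein, differed by -1.19 with adjusted p-values of 0.181 on 12 arrays and 0.0084 on 6. Ubxn4, of nearly the size of Scap and named after its value was seen, differed by 0.71 the other way, with adjusted p-values of 0.183 and 0.00556. Srebf1, whose products lean to fatty acid synthesis, read 7.25, 7.43 and 7.28 in Yap-off and 6.54, 6.48 and 6.54 in Yap-on organoids. That difference of -0.80 had adjusted p-values of 0.182 and 0.00109. A test of the Srebf1 difference against that of Srebf2 was not run.

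Uptake genes included large falls. Lrp1, an endocytic receptor for lipoprotein remnants, fell from 8.19, 7.97 and 8.37 in Yap-off to 4.53, 5.30 and 4.23 in Yap-on organoids, by 3.49 on the log2 scale (SE 0.50, adjusted p = 0.00165). Lipa, the lysosomal acid lipase that frees cholesterol from its esters, fell by 1.53 (adjusted p = 0.00251). Npc1, which exports that cholesterol from the lysosome, fell by 1.08 (adjusted p = 0.00551). Scarb1, the high-density lipoprotein receptor, read 8.58, 8.85 and 8.84 and then 6.65, 6.86 and 6.81, a difference of -1.99 with an adjusted p of 0.0632 on 12 arrays and 3.89e-05 on 6. In the other 6 libraries Lrp1 ranged from 8.14 to 10.42 and Scarb1 from 6.91 to 10.16.

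Disposal showed the largest differences of the pathway. Lcat, which esterifies cholesterol on lipoproteins in plasma, read 8.15, 8.81 and 9.38 in Yap-off and 3.94, 3.95 and 3.95 in Yap-on organoids, a difference of -4.84 (SE 0.42, adjusted p = 6e-05). Abca1, the exporter that loads apolipoprotein A-I, fell from 7.79, 7.55 and 8.12 to 3.67, 3.86 and 3.80 (adjusted p = 0.00636). Abcg5 and Abcg8, which together form the canalicular sterol pump, differed by -1.99 and -1.86, with adjusted p-values of 0.00124 and 0.000891. Their Yap-on means, 3.14 and 2.88, lay near the wild-type organoid means, 3.39 and 3.35. Yap-off minus wild-type organoids was 1.74 and 1.39 (adjusted p = 0.0159 and 0.0227). Yap-on minus wild-type organoids was -0.25 and -0.47 (adjusted p = 0.599 and 0.272). For Lcat these 2 comparisons gave 1.99 and -2.85 (adjusted p = 0.0416 and 0.00299), and for Abca1 0.05 and -3.99 (0.979 and 0.0108). The Yap-on values of Lcat and Abca1, and those of Abcg5 and Abcg8 at 2.75 to 3.17, lay below the array medians of 4.14 to 4.34. The size of a fall is therefore limited by the background of the arrays. Wild-type organoids 1 to 3 lay below those medians too, at 3.69, 3.38 and 3.08 for Abcg5 and 3.52, 3.29 and 3.25 for Abcg8. Their nearness to the Yap-on values thus does not show like expression. Cyp7a1, the rate-limiting enzyme of classical bile acid synthesis, was at 3.495, 5.86 and 5.64 in Yap-off and 2.60 to 2.67 in Yap-on organoids, a difference of -2.36 (adjusted p = 0.029) whose size the background limits too. Only without Yap-off organoid 1 was this call kept, and leaving out any of the other 5 libraries gave adjusted p-values up to 0.11. Cyp27a1, of the alternative route, differed by -2.90 (adjusted p = 0.017), and its call was kept without Yap-off organoid 1 or Yap-on organoid 3 and lost without each of the other 4 libraries, with adjusted p-values up to 0.074.

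Against wild-type organoids, the 8 genes were higher in both Yap groups by the group means, and the size depended on 1 library. In Yap-off minus wild-type organoids the median of the 8 was 1.34 against 0.05 for all genes, and 1 of 8 passed with a background of 2.61%. That gene was Dhcr7, 2.11 higher (SE 0.42, adjusted p = 0.0341), and when each library was left out in turn it passed only without wild-type organoid 2, with adjusted p-values of 0.00626 to 0.119 over the 6 fits. In Yap-on minus wild-type organoids the median was 1.53 against -0.02, and 1 of 8 passed with a background of 5.47%. This was Srebf2, 1.58 higher (SE 0.38, adjusted p = 0.0414), which also passed only without wild-type organoid 2 among the 6 such fits, at 0.000307 to 0.15.

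Without the pair of libraries hepatocyte 2 and wild-type organoid 2, the remaining wild-type organoids were the 2 with macrophage means of 9.997 and 10.91. All 8 genes then passed as higher in Yap-off organoids, by 1.11 for Hmgcs1 to 4.05 for Sqle, where 32.3% of all genes passed and 18.2% passed as higher. All 8 also passed as higher in Yap-on organoids, by 0.92 for Insig1 to 4.11 for Sqle, with 41.0% of all genes passing and 24.6% as higher. Adjusted p-values were at most 0.00573 and 0.032. The library left out, wild-type organoid 2, with a macrophage mean of 3.998, averaged 8.05 over the 8 genes, next to the 8.19 to 8.44 of the Yap groups. In that library Fdft1, at 8.95, and Idi1, at 8.11, lay within the range of the Yap-on libraries, and Dhcr7, at 7.15, lay below all 6 Yap libraries. Other synthesis enzymes gave 11 higher and 2 lower of 13 in Yap-off minus wild-type organoids under the same fit, and 11 and 1 in Yap-on minus wild-type organoids. Both comparisons share their wild-type libraries. The pair was left out with earlier results of these data known, so the calls of this fit are no independent test. The SE of Sqle in Yap-off minus wild-type organoids was 1.19 with all arrays and 0.25 without the pair. Both remaining wild-type libraries had high macrophage and endothelial markers, and the part of those cells in these differences was not tested.

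Against the sorted cells, Yap-off organoids had 1 of 8 genes called on 12 arrays, with a background of 1.90%, and Yap-on organoids 2 of 8, with a background of 6.19%. Dhcr7 was 2.59 higher in Yap-off organoids (SE 0.42, adjusted p = 0.0171). It passed without any 1 of the hepatocytes or Yap-off organoid 1, but not without Yap-off organoid 2 or 3, with adjusted p-values up to 0.072. Hmgcs1 was 1.93 higher in Yap-on organoids (adjusted p = 0.02), a call kept without each hepatocyte library and lost without each Yap-on library, with adjusted p-values up to 0.0768. On the 6 arrays of this comparison Srebf2 passed as well (0.92, adjusted p = 0.0352). Idi1 was 2.77 higher (adjusted p = 0.0269), a call kept only without hepatocyte 1 among the 6 fits, and on its other row the difference was 1.63 with an adjusted p of 0.102.

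Leaving out hepatocyte 2 and wild-type organoid 2 left the 2 sorted libraries with macrophage means of 4.35 and 4.70. Their biliary means were 6.09 and 5.94, against 3.73 in hepatocyte 2, and their hepatocyte means 8.81 and 9.02, against 9.69. Xist was at 8.82 and 8.999 in them and at 3.14 to 3.20 in Yap-on organoids. Sex thus cannot be told apart from group in Yap-on organoids minus hepatocytes. Yap-off organoids then had 3 genes called higher, Hmgcs1 by 0.86, Idi1 by 1.69 and Dhcr7 by 2.93, with a background of 14.0%. In Yap-on organoids 4 were higher, the same 3 by 1.45, 2.25 and 1.71 and Srebf2 by 0.75, with a background of 21.6%. Sqle, Fdft1, Lss and Insig1 were not called in either comparison, and their differences lay between -0.09 and 0.66. The 95% intervals in Yap-off organoids minus hepatocytes were -0.45 to 0.68 for Sqle, -0.46 to 0.28 for Fdft1, -0.06 to 1.04 for Lss and -0.0014 to 1.32 for Insig1. In Yap-on organoids minus hepatocytes they were -0.38 to 0.74, -0.02 to 0.72, -0.34 to 0.75 and -0.68 to 0.65. All of these held 0, and the highest end was that of Insig1. As the pair was left out with earlier results of these data known, the calls of this fit are no independent test.

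Wild-type organoids and the sorted cells differed in 0 of 8 genes on 12 arrays in limma, with 0 at an unadjusted p under 0.05 and a background of 0.0502%. The median difference was -0.55, against -0.03 for all genes. Without the pair, 4 of 8 passed, all lower in wild-type organoids, with a background of 30.7%. Sqle was lower by the most, with a difference of -3.94, then Lss at -2.82, Fdft1 at -2.33 and Srebf2 at -1.33. These are the 2 libraries with high macrophage markers set against the 2 without, and the part of those cells in the difference was not tested. Here too the pair was left out with earlier results known, so these calls are no independent test.

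The average of the 8 genes varied far more among the never-induced libraries than between the Yap groups. Each gene was centred on its own mean over the 12 arrays, and the average of the 8 was -1.57 in hepatocyte 2, -1.47 in wild-type organoid 1 and -1.52 in wild-type organoid 3. It was -0.22 and -0.03 in hepatocytes 1 and 3, 0.48 in wild-type organoid 2, and 0.61 to 0.87 in the 6 Yap libraries. The genes outside the list with the most similar profile were Abhd2, Avpi1, Cdkn2b, Marveld2, Carmil1, Pick1, Lurap1l and Celsr1, with Pearson r from 0.987 down to 0.981 over the 12 arrays. Such likeness was shared by 286 genes with r above 0.9. Over the 6 Yap libraries alone, r of the same 8 genes ranged from -0.58 for Avpi1 to 0.56 for Marveld2. These correlations over 12 arrays that fall into separate groups are a description of the libraries.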

How the data were processed

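The deposited values are intensities on a linear scale that the authors made with RMA, per the submitters' processing notes, which gave no version. RMA corrects background, quantile-normalizes arrays and returns log2 values, so the deposited intensities appear transformed back, and log2 was taken here. The labels name Qiagen microRNEasy for extraction and Nugen Pico WT for labelling. The array annotation rests on a genome build not given in the sources used here.

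Of 34760 array rows, 11799 without a probe annotation and 1321 naming several genes were left out. For 954 genes with several rows the brightest on average was taken, leaving 19937 genes with no filter on low values. Array medians were 13.6 to 15.6, and no arrays were identical. Groups came from titles. Log2 values were fitted with limma 3.58.1 (R 4.3.3; lmFit, eBayes; 8 residual degrees of freedom) for 6 comparisons, with Benjamini-Hochberg adjustment over all genes, called under 0.05. A permutation test of 3 against 3 cannot go below p = 0.1 and was left out. Precision is limited by the number of arrays. The fit was tested on simulated data.

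Named genes were the 8 members, Yap1, Srebf1, called genes of the wider lists and the 3 with the largest difference in each, the 8 most alike, and Alb, Cyp2e1, Krt19, Lyz2 and Stab2 as markers. Some genes of the wider lists are not reported here. The members and lists were chosen with earlier results of these data known. Alternatives were the fit without hepatocyte 2 and wild-type organoid 2, a choice made with those results known, renewed quantile normalization, median centring, mean of rows, leaving out the 30% lowest genes, only the 6 arrays compared, an intensity trend, the replicate number as a block and leaving out each library. The other rows of Idi1 and Fdft1 were added after seeing the data. Figures used matplotlib 3.10.9.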

Additional observations from a re-analysis of the deposited data

How the results depend on the processing

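Counts of the 8 genes called depended most on which libraries entered the fit. For Yap-on minus Yap-off organoids the count of 0 became 1 after renewed quantile normalization and 4 on only the 6 arrays. It became 4 without the libraries titled hepatocyte 2 and wild-type organoid 2, and 0 to 1 when a library was left out in turn. Calls over all 19937 genes went from 2283 to 1959, 6212, 5914 and 1171 to 2169 in the same order. For Yap-off minus wild-type organoids 1 became 2 after renewed quantile normalization and 0 on 6 arrays. It became 8 without that pair and 0 to 5 leaving out a library. All-gene calls there went from 520 to 566, 61, 6449 and 101 to 3864. For Yap-on minus wild-type organoids 1 became 0 on 6 arrays, 8 without the pair, and 0 to 7 leaving out a library. All-gene calls there went from 1091 to 699, 8167 and 575 to 6022. For wild-type organoids minus hepatocytes 0 became 4 without the pair and 0 to 1 leaving out a library. All-gene calls there went from 10 to 6117 and 0 to 1604. For Yap-off organoids minus hepatocytes 1 became 0 on 6 arrays, 3 without the pair and 0 to 1 leaving out a library. All-gene calls there went from 378 to 143, 2792 and 113 to 837. For Yap-on organoids minus hepatocytes 2 became 1 on the other row of Idi1 and 3 on 6 arrays. It became 4 without the pair and 0 to 2 leaving out a library. All-gene calls there went from 1234 to 1233, 1759, 4300 and 732 to 1935. Leaving out libraries changes the number of samples, the spread and, for their own groups, the means; the cause of the other moves was not tested.

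Of the values of single genes under an alternative, 635 kept direction and stayed called or uncalled, 47 gained and 28 lost a call, and 10 turned sign. The 635 include values called in neither fit. They also include values from the mean of rows and the other rows, which could change only those of Idi1 and Fdft1. The count is thus no measure of stability. Sqle in Yap-on minus Yap-off organoids was -0.06 after renewed quantile normalization and -0.0575 to 0.18 leaving out a library. Without the pair, Hmgcs1 in wild-type organoids minus hepatocytes was -0.25 and Fdft1 in Yap-off organoids minus hepatocytes -0.0889. Leaving out a library gave Dhcr7 -0.0171 to 0.82 and Fdft1 -1.46 to 0.0791 in wild-type organoids minus hepatocytes, Fdft1 -0.0889 to 1.45 in Yap-off organoids minus hepatocytes, and Insig1 -0.16 to 0.0405 in Yap-on organoids minus hepatocytes.

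Replicate numbers were not shown to pair the samples. Correlations of same-numbered libraries' deviations from their group means were -0.71 to -0.51 between hepatocytes and wild-type organoids and -0.14 to 0.12 for the other pairs of groups. Macrophage means were 4.35, 11.19 and 4.70 in hepatocytes 1 to 3 and 9.997, 3.998 and 10.91 in wild-type organoids 1 to 3. Library 2 was thus the odd one in both groups, in opposite directions. The negative correlations follow from that and cannot tell whether the numbers pair these libraries. With the replicate block, 0 of the 8 genes were called in Yap-off and in Yap-on minus wild-type organoids and 0 in Yap-on organoids minus hepatocytes. Of all 19937 genes, 170, 820 and 981 were called in those comparisons, in that order. Calls over all genes in Yap-on minus Yap-off organoids went from 2283 to 1719.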

Other observations

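Mylip, Abcg1, Nr1h3 and Vldlr, genes of cholesterol handling outside the 8, set apart the same 3 libraries as Sqle, and were chosen after their values were seen. Mylip, the ubiquitin ligase that sends lipoprotein receptors to breakdown, read 8.27 in the library titled hepatocyte 2, 9.61 in wild-type organoid 1 and 9.10 in wild-type organoid 3, and 3.26 to 3.93 in the other 9. Abcg1, a cholesterol exporter abundant in macrophages, read 9.55, 8.66 and 7.81 in those 3 libraries and 3.74 to 5.62 in the others. Nr1h3, the sterol sensor LXR-alpha, read 9.9997, 8.12 and 9.11 there, 6.73 to 6.99 in Yap-off and 3.84 to 4.20 in Yap-on organoids. Vldlr, a lipoprotein receptor, ran the other way, with 3.44, 3.45 and 3.66 in the 3 libraries and 5.03 to 8.44 in the others.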
